A study of Homo sapiens with 6 samples.

Results

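The genes described here are the human zinc finger genes of chromosome 19 that carry a numbered ZNF name. They were chosen from the GENCODE v44 annotation of GRCh38 as protein-coding genes on chromosome 19 named ZNF followed by digits and at most 1 letter, a rule that uses no measured value. The rule found 246 genes among the 62228 genes in the deposited tables. Another 262 ZNF genes lie on other chromosomes, and chromosome 19 holds 1214 other protein-coding genes when 16 zinc finger genes with other names (ZFP, ZSCAN, ZIM, ZIK1 and PEG3) are set aside. The measurements come from 6 poly-A selected RNA-seq libraries of K562 cells, an established line from a chronic myeloid leukemia with erythroid features. All 6 cultures were exposed to lentivirus carrying a pLKO.1 hairpin plasmid with 8 µg/mL polybrene and were then kept for 4 days in 3 µg/mL puromycin. The 3 shCtrl libraries carried a hairpin against luciferase, and the 3 shPCBP1 libraries carried a hairpin against PCBP1, so both groups express a hairpin and resist puromycin. Nothing in the sources states that the 3 libraries of a group came from separate transductions, so p-values measure the spread between these libraries, which may be technical.

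PCBP1 is a poly C-binding protein that regulates splicing, stability and translation of RNAs with C-rich stretches and also carries iron to other proteins. ZNF proteins of chromosome 19 are mostly C2H2 zinc finger proteins, in which each finger is a short fold held by a zinc ion that reads a few bases of DNA. Many also carry a KRAB domain, which recruits the co-repressor TRIM28 (KAP1) and through it the histone methyltransferase SETDB1 and HP1 proteins. The family grew by tandem duplication, so its genes stand in clusters of close relatives, and several members silence transposable elements.

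The libraries held 67066747 to 140522444 estimated counts, and the spread between replicates exceeded counting noise (chi-square over its degrees of freedom, 6.50 to 16.4). Normalized counts (gene counts divided by the size factor of the library) of PCBP1 were 40567, 38411 and 37800 in shCtrl and 6624, 7276 and 7221 in shPCBP1. PCBP1 was thus reduced to 18.1% of its shCtrl mean, a log2 fold change of -2.47 (SE 0.0439, n = 3 per group). The summed level of 8 erythroid and K562 markers was 28413 to 33908 TPM, the length-normalized level given by Salmon, in shCtrl and 32423 to 33692 TPM in shPCBP1. The summed level of 10 markers of other cell types was 620 to 671 TPM in shCtrl and 591 to 644 TPM in shPCBP1, so the ranges of the groups overlapped for both lists. KRT8 made up most of the latter sum, at 459 to 510 TPM, and CD3E, MS4A1, CD14 and PAX2 were below 0.5 TPM in every library.

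The relatedness of these genes can be seen in their coding sequence. The linker that joins neighbouring fingers is nearly constant. The 14-base word held by the most members is ACTGGAGAGAAACC, a stretch that codes for the linker. This word was picked from the members themselves, so its share in them is high by that choice. It was searched on the sense strand of the canonical transcript of every protein-coding gene. It was present in 150 of the 246 members (61.0%), in 29.4% of the 262 ZNF genes on other chromosomes, in 1.06% of the 1230 other protein-coding genes of chromosome 19, the 16 named above included, and in 1.29% of all 19980 protein-coding genes. ZNF208 held 22 copies, the highest number. The 30-base windows below come from coding exons of GRCh38, are written 5′ to 3′ on the strand of the gene, and are shown because they hold bases that many members have in common. The capitals mark the 14 shared bases. ZNF700, ZNF823 and ZNF442 are members that fell in shPCBP1, ZNF146, ZNF45 and ZNF227 are members that rose, and ZNF93 and ZNF208 did not pass the test.
ZNF700 (chr19:11948581-11948610, plus strand, exon 4 of 4): gggatcacACTGGAGAGAAACCctatgctt
ZNF823 (chr19:11722870-11722899, minus strand, exon 4 of 4): gaacacacACTGGAGAGAAACCgtatgaat
ZNF442 (chr19:12350870-12350899, minus strand, exon 6 of 6): gaactcacACTGGAGAGAAACCgtatgaat
ZNF146 (chr19:36236967-36236996, plus strand, exon 4 of 4): acattcacACTGGAGAGAAACCctatgaat
ZNF45 (chr19:43914184-43914213, minus strand, exon 10 of 10): gaggccatACTGGAGAGAAACCgtatcagt
ZNF227 (chr19:44235461-44235490, plus strand, exon 6 of 6): gaactcatACTGGAGAGAAACCctataaat
ZNF93 (chr19:19933533-19933562, plus strand, exon 4 of 4): aaattcatACTGGAGAGAAACCctacattt
ZNF208 (chr19:21974343-21974372, minus strand, exon 4 of 4): gtgctcatACTGGAGAGAAACCctacagat
All 8 windows lie in the last exon, which in these genes codes for the fingers. By letter spacing, the longest coding sequence of a member held a median of 13 C2H2 fingers, from 1 to 39, with 39 in ZNF729, 36 in ZNF208 and 32 in ZNF91.

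The files assign reads to transcripts by estimation, so close relatives and overlapping genes share reads. In 60 members more than 20% of the 31-base words of their transcripts also occurred in transcripts of other genes, and 90 members overlapped an exon of another gene on the same strand. These 106 members in all are called uncertain below. A further limit concerns strand, because 83 members overlapped an exon of a gene on the opposite strand and the sources do not state whether the libraries keep strand. Among these are 12 of the members that passed the gene count test described below, with ZNF146, ZNF175, ZNF227 and ZNF526 among the 12.

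K562 cells expressed most of the family at low levels. With gene levels taken as the sum of transcript TPM, 170 of the 246 members reached a mean of 1 TPM over the 6 libraries (69.1%, against 55.7% of all protein-coding genes and 58.5% of the other protein-coding genes of chromosome 19). Among genes at or above 1 TPM, the median level was 4.84 TPM for the members, 18.9 TPM for all protein-coding genes and 27.9 TPM for the other protein-coding genes of chromosome 19. A mean of 10 TPM was reached by 34 members and 20 TPM by 13, while 24 lay under 0.1 TPM. ZNF729 and ZNF667 had no count in any library. The family was thus widely detected in K562, with most members well below the usual level of a chromosome 19 gene.

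The highest level in the family was that of ZNF146, a short protein made almost wholly of fingers with no KRAB domain (chr19:36214602-36238771, plus strand). It had 63.2, 59.6 and 61.9 TPM in shCtrl and 68.7, 71.9 and 69.4 TPM in shPCBP1. The next levels, as means over the 6 libraries, were 41.8 TPM for ZNF787 and 41.4 TPM for ZNF428. These were followed by ZNF580 at 30.3, ZNF544 at 26.3, ZNF444 at 25.9, ZNF274 at 25.7 and ZNF584 at 23.8 TPM. ZNF274 is the KRAB zinc finger protein that brings SETDB1 to the 3′ ends of other ZNF genes. The order of ZNF544, ZNF444 and ZNF274 is not resolved, since their libraries spanned 24.9 to 28.6, 23.7 to 26.9 and 23.5 to 28.0 TPM.

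**Figure D1:**
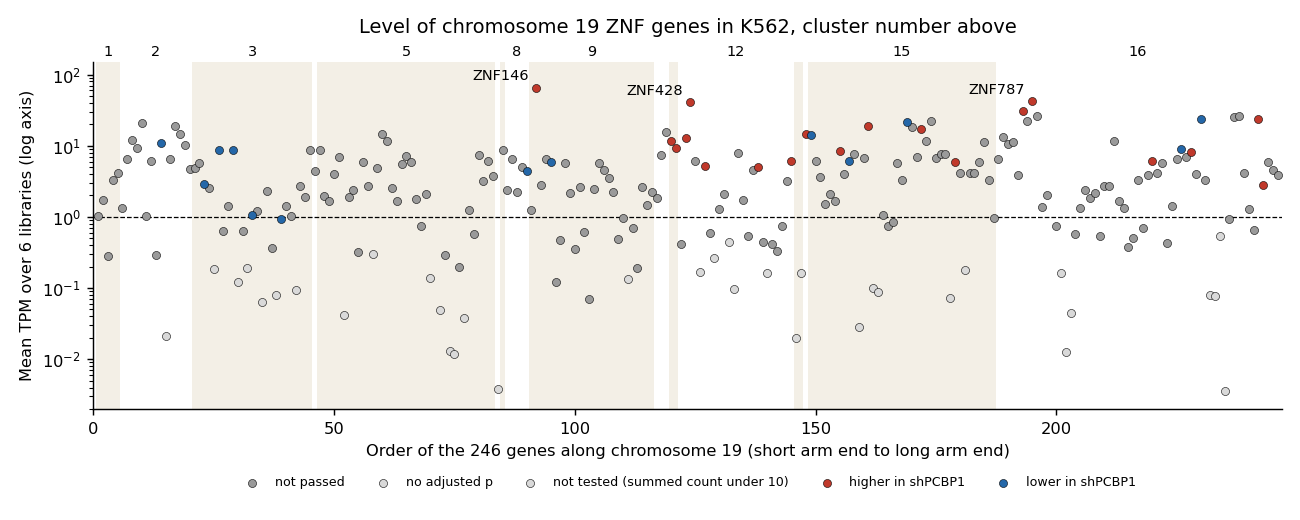
Mean level of each member over the 6 libraries (TPM, log axis) by its order along chromosome 19, with shading that alternates between clusters and the number of each cluster of 5 or more genes above. ZNF146 at 65.8 TPM, ZNF787 and ZNF428 lie at the top, the dashed line marks 1 TPM, and the 2 members with no count are not drawn.

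The comparison of shPCBP1 with shCtrl asks which of these genes change when PCBP1 is depleted. In bulk RNA, fewer cells that express a gene and less RNA per cell cannot be told apart. After summing estimated counts per gene, 240 members reached a summed count of 10 and were tested with DESeq2, and 209 were given an adjusted p, the other 31 being set aside by its filter on low counts. Of the 209, 32 passed an adjusted p of 0.05 (15.3%), where 31.2% of the 17092 genes given an adjusted p passed. Of these 32, 19 were higher in shPCBP1, where 17.7% of all genes were called higher, and 13 were lower, where 13.5% were. The changes were small, between 0.14 and 0.77 in absolute log2 fold change with a median of 0.29. No member combined an adjusted p under 0.05 with a change beyond 2-fold in either direction, a rule that also asks for more than 10 normalized counts on average and was met by 1.37% of all genes. Under edgeR no member met that rule either, and 45 members had an unadjusted p under 0.05 in DESeq2, where 25.5% of the 28803 genes with a p did. The median log2 fold change was 0.01 over the 209 members and 0.00 over all genes, and the median absolute log2 fold change was 0.14 against 0.16.

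Members have lower counts than most genes, so the shares were also read in the middle range of the members' counts, 242 to 1537 mean normalized counts. There 11 of 105 members passed (10.5%), against 27.4% of all 3777 genes in that range, 19.3% of the ZNF genes on other chromosomes and 43.2% of the other protein-coding genes of chromosome 19. Over all counts, 72 of 221 ZNF genes on other chromosomes passed (32.6%, 55 higher and 17 lower), and 365 of 818 other protein-coding genes of chromosome 19 passed (44.6%, 159 higher and 206 lower). These are counts over lists of genes that share libraries and, in part, sequence, and the difference between the lists was not tested. The groups did not overlap for 58 of the 209 members and for 44.2% of all genes. Among the 32 passing members only ZNF28 and ZNF480 had libraries of the groups that overlapped.

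**Figure D2:**
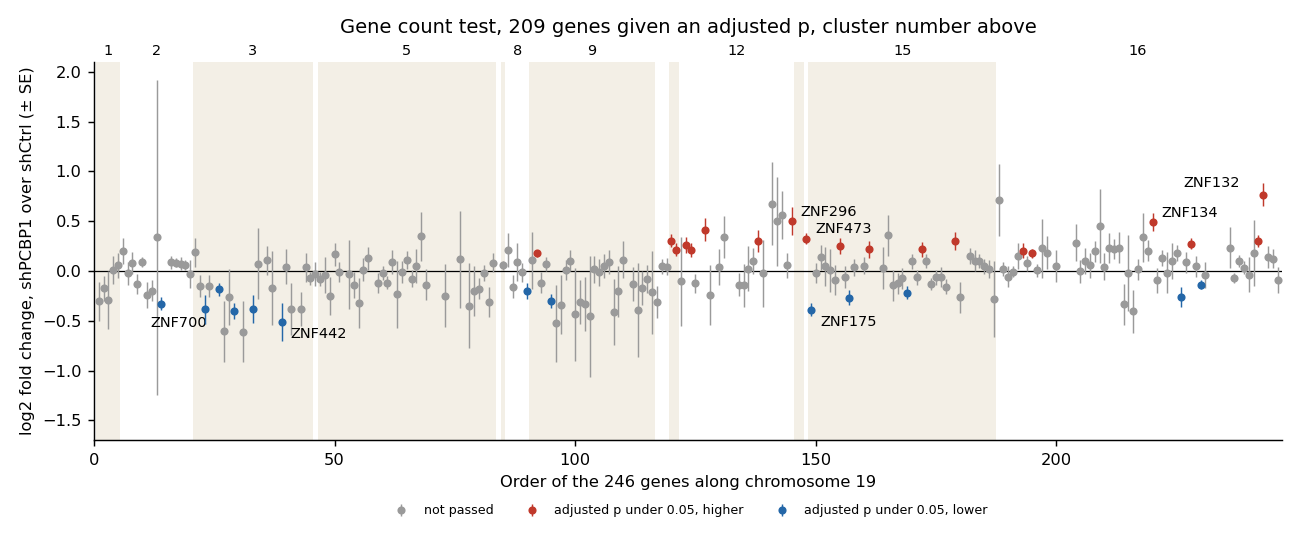
Log2 fold change of shPCBP1 over shCtrl with its SE for the 209 members given an adjusted p, by order along chromosome 19, with shading and numbers for clusters as in the plot of levels. Red points (19) and blue points (13) passed an adjusted p of 0.05, blue points alone in cluster 3 and red points alone in cluster 12, and ZNF132 at 0.77 lies highest among them.

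The gene that rose most among those passing was ZNF132, a zinc finger protein with 17 fingers by letter spacing, at the distal end of the last cluster (chr19:58432814-58440153, minus strand). Its normalized counts were 449, 498 and 517 in shCtrl and 780.2, 845 and 868 in shPCBP1. Each shPCBP1 library was above all shCtrl libraries. The log2 fold change was 0.77 (SE 0.118, DESeq2 adjusted p = 1.67e-09), and it stayed between 0.71 and 0.81 when any 1 library was left out. Most of its TPM was assigned to ZNF132-203, a transcript annotated without a defined coding sequence, which held 82.6% ± 3.53 of the gene's TPM in shCtrl and 73.5% ± 3.68 in shPCBP1 (SD, n = 3). The coding transcript ZNF132-201 had 0.37, 0.43 and 0.29 TPM in shCtrl and 0.72, 1.04 and 1.05 TPM in shPCBP1, so the coding form of the gene was rare in both groups.

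ZNF134 lies in the same cluster (chr19:57614233-57624724, plus strand). It had 1045, 1084 and 1213 normalized counts in shCtrl and 1640.3, 1594 and 1463 in shPCBP1. The groups were well apart, with a log2 fold change of 0.49 with an SE of 0.0911 (DESeq2 adjusted p = 1.02e-06). ZNF584, beside ZNF132, had 2647, 2805 and 2827 normalized counts in shCtrl and 3427, 3356 and 3421 in shPCBP1, and the libraries of each group lay close together. Its log2 fold change was 0.30 (SE 0.0585, DESeq2 adjusted p = 3.26e-06), and the gene is uncertain because it overlaps an exon of another gene on its strand. With coding transcripts only its log2 fold change was 0.19 and the call was lost (adjusted p = 0.122).

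ZNF473, the component of the U7 small nuclear ribonucleoprotein that takes part in 3′ end processing of histone pre-mRNA, stands alone between clusters (chr19:50025714-50053414, plus strand). Its normalized counts were 3948, 3921 and 4432 in shCtrl and 5295, 5105 and 5032 in shPCBP1. No shPCBP1 library reached down to the shCtrl range, and the log2 fold change was 0.33 with an SE of 0.0592 (DESeq2 adjusted p = 5.34e-07). It overlaps exons of VRK3 on the opposite strand, and reads from the genes cannot be told apart without strand.

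ZNF574 and ZNF526 form a pair of GC-rich neighbours without KRAB letters and both rose. ZNF574 had 2617, 2455 and 2678 normalized counts in shCtrl and 3356, 3209.6 and 3003 in shPCBP1, a log2 fold change of 0.30 with an SE of 0.0659 (DESeq2 adjusted p = 3.96e-05). ZNF526 had 2149.9, 2133 and 2365 in shCtrl and 2649.8, 2463 and 2613 in shPCBP1, a log2 fold change of 0.22 with an SE of 0.0697 (DESeq2 adjusted p = 0.00901). In both genes the lowest shPCBP1 library was above the highest shCtrl library. The call of ZNF526 was lost without shCtrl replicate 1 (adjusted p = 0.0587) and without shPCBP1 replicate 1 (0.0565).

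ZNF146 and ZNF787, the members with the highest levels, both rose. ZNF146 had 13240.0, 12555 and 13021 normalized counts in shCtrl and 14850.0, 14825 and 14198 in shPCBP1, a log2 fold change of 0.18 with an SE of 0.0393 (DESeq2 adjusted p = 6.62e-05). ZNF787 had 5126, 5348 and 5402 in shCtrl and 5831, 6006 and 6121 in shPCBP1, also 0.18 (SE 0.0481, DESeq2 adjusted p = 0.00138). The groups did not overlap in normalized counts for either gene. In TPM, ZNF787 had 38.4, 41.7 and 41.0 in shCtrl and 40.9, 42.6 and 46.4 in shPCBP1, so its groups overlapped on that scale, and with an offset for transcript length its log2 fold change was 0.12 (DESeq2 adjusted p = 0.157).

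Among the other genes that rose, ZNF296 had 617, 459.7 and 702 normalized counts in shCtrl and 847, 859 and 819 in shPCBP1, with wider spread in shCtrl than in shPCBP1. Its log2 fold change was 0.50 (SE 0.141, DESeq2 adjusted p = 0.00213). ZNF45 had 655, 726 and 780.0 in shCtrl and 913, 1100.3 and 870.5 in shPCBP1, a log2 fold change of 0.42 with an SE of 0.12 (DESeq2 adjusted p = 0.00273). Its call was lost without shPCBP1 replicate 2, the highest library (log2 0.31, adjusted p = 0.0645), and with the length offset (0.21, adjusted p = 0.144). ZNF614 rose by 0.25, a call lost without shPCBP1 replicate 2 (adjusted p = 0.0712). ZNF347 rose by 0.30 in counts, yet its TPM values (6.65, 6 and 4.96 in shCtrl, 7.07, 5.93 and 4.83 in shPCBP1) did not separate the groups, and with the length offset its log2 fold change was 0.04 (DESeq2 adjusted p = 0.888).

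ZNF576, ZNF428 and ZNF227, of cluster 12 described below, rose by 0.26, 0.21 and 0.30 (DESeq2 adjusted p = 0.0067, 0.0137 and 0.0265). ZNF576, uncertain because it overlaps an exon of SRRM5 on its strand, lost its call without shPCBP1 replicate 1 (adjusted p = 0.0561). ZNF428 lost it without shCtrl replicate 2 and without shPCBP1 replicate 1 or 2 (0.0938, 0.137 and 0.0573), and ZNF227 without shCtrl replicate 3 and without shPCBP1 replicate 2 (0.106 and 0.14). With the length offset ZNF428 had an adjusted p of 0.0668. ZNF28 and ZNF480, which lie in one cluster and both rose by 0.22 (DESeq2 adjusted p = 0.0154 and 0.0334), had overlapping groups, and each lost its call without 4 of the 6 libraries in turn, with shCtrl replicate 1, shCtrl replicate 2 and shPCBP1 replicate 2 among them for both. The adjusted p reached at most 0.157 for ZNF28 and 0.24 for ZNF480, both without shPCBP1 replicate 2.

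Among the 13 genes that fell, the lowest adjusted p was that of ZNF175 (chr19:51571283-51592510, plus strand), a KRAB zinc finger protein also known as OTK18 that represses the HIV long terminal repeat. Its normalized counts were 4162, 4405 and 3684 in shCtrl and 3053, 3084 and 3223 in shPCBP1. All shPCBP1 libraries were below all shCtrl libraries, with a log2 fold change of -0.39 with an SE of 0.0687 (DESeq2 adjusted p = 2.81e-07). Its canonical transcript ZNF175-201 had 6.96, 7.55 and 6.16 TPM in shCtrl and 5.01, 5.20 and 5.34 TPM in shPCBP1, the same direction as the gene, with a limma adjusted p of 0.124.

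ZNF266, in the cluster nearest the short arm end but one, had 2799, 2809 and 2812 normalized counts in shCtrl and 2162, 2158 and 2391 in shPCBP1. The shCtrl libraries were nearly equal, and the log2 fold change was -0.33 with an SE of 0.066 (DESeq2 adjusted p = 7.65e-06). ZNF529 had 2252, 2321 and 2284 in shCtrl and 1712, 1907 and 1949.9 in shPCBP1, a log2 fold change of -0.30 with an SE of 0.0729 (DESeq2 adjusted p = 0.000282). It too was separated between groups, and it overlaps exons of ZNF382 and an antisense RNA on the opposite strand. ZNF792 fell by 0.20 on the log2 scale, just inside the threshold (DESeq2 adjusted p = 0.0494), and passed only without shPCBP1 replicate 3, with adjusted p of up to 0.17 without another library. ZNF841 and ZNF83, both uncertain by exon overlap on their strand, had log2 fold changes of -0.27 and -0.22. ZNF841 lost its call with the length offset (adjusted p = 0.135), and ZNF83 kept it (adjusted p = 0.0404). With coding transcripts only ZNF83 lost its call, at a log2 fold change of -0.11 (adjusted p = 0.478).

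**Figure D3:**
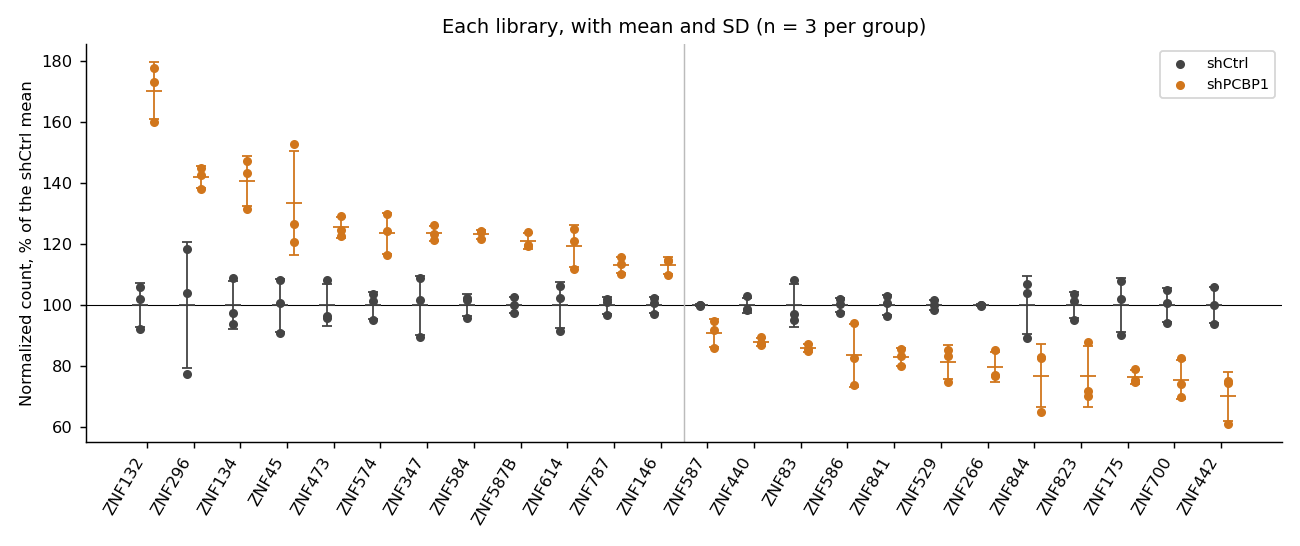
Normalized count of each library as a percentage of the shCtrl mean of the same gene, for the 12 rising and the 12 falling members with the lowest adjusted p, with the mean and SD (n = 3 per group). The groups do not overlap for any of the 24 genes, and the spread within a group is widest for ZNF296 in shCtrl and for ZNF45 in shPCBP1.

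A set of 3 neighbours in the last cluster moved in opposite directions. ZNF587B, whose annotated span overlaps that of ZNF586, had 2746, 2670.3 and 2599 normalized counts in shCtrl and 3202, 3311 and 3186 in shPCBP1 and rose by 0.28 (SE 0.0589, DESeq2 adjusted p = 3e-05). ZNF587 had 7933, 7904 and 7934 in shCtrl and 6816, 7512 and 7267 in shPCBP1, a log2 fold change of -0.14 with an SE of 0.047 (DESeq2 adjusted p = 0.0133). ZNF586 had 1243, 1264 and 1205 in shCtrl and 912, 1166 and 1024 in shPCBP1, a log2 fold change of -0.26 with an SE of 0.102 (DESeq2 adjusted p = 0.0372). All 3 are uncertain, since they overlap each other or a further gene on the same strand, and 24.9% of the 31-base words of ZNF587B and 36.9% of those of ZNF587 occurred in other genes. How reads were divided between these genes was not tested. ZNF586 passed in 1 of the 6 fits that left out a library, with a log2 fold change of -0.17 and an adjusted p of 0.218 without shPCBP1 replicate 1. ZNF587 passed in 4 of them, with -0.10 and 0.0876 without shPCBP1 replicate 1. With coding transcripts only neither passed (adjusted p = 0.321 for ZNF586 and 0.099 for ZNF587), and ZNF586 also lost its call with edgeR (0.0566) and with the length offset (0.555).

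Position along the chromosome was read by splitting the members into clusters wherever more than 1 Mb separated neighbours, which gave 16 clusters of 1 to 59 genes. In cluster 3 (chr19:11483427-12640098, 25 genes from ZNF653 to ZNF791), 14 of the 19 members given an adjusted p had negative log2 fold changes, and the 5 that passed were all lower. These were ZNF700, ZNF844, ZNF823, ZNF442 and ZNF440. Over all genes given an adjusted p, 31.2% passed and 50.3% had a log2 fold change above 0. In the middle count range of the members, 41.8% of all 3777 genes were above 0. Among the 146 other protein-coding genes of chromosome 19 in that range, 30.8% were above 0 and the median was -0.18. Of these 146 genes, 11 passed higher and 52 lower, so a lean to lower values was not particular to cluster 3. ZNF700 (chr19:11925068-11950773, plus strand) had 2252, 2347 and 2103 normalized counts in shCtrl and 1563, 1657 and 1846 in shPCBP1. Its groups were separate, with a log2 fold change of -0.40 with an SE of 0.0811 (DESeq2 adjusted p = 7.38e-06), and 34.3% of its 31-base words are shared. The other 4 passed with adjusted p between 0.0241 and 0.0273 and log2 fold changes of -0.38 (ZNF844), -0.39 (ZNF823), -0.51 (ZNF442) and -0.19 (ZNF440). Each of these 4 lost its call without shCtrl replicate 3 and without shPCBP1 replicate 1, among other libraries, while its log2 fold change stayed negative. ZNF700 is uncertain, and so are ZNF844 and ZNF440, with 53.4% and 24.7% of their 31-base words shared.

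The normalized counts of all 25 genes of cluster 3 summed to 12938, 13219 and 13107 in shCtrl and 11044, 11533 and 11898 in shPCBP1. Every shPCBP1 sum was below every shCtrl sum. The median log2 fold change in this cluster was -0.19, and it stayed between -0.29 and -0.17 over the 12 other settings of the test and between -0.27 and -0.18 when 1 library was left out. Some settings, here and for the clusters below, keep the fold changes of the main fit and alter only which members are counted. Dropping independent filtering and testing against a log2 fold change of 1 are of that kind. The calls were less stable than the median. The 5 lower calls became 2 with edgeR, 2 with the length offset, 1 without shCtrl replicate 3 and 3 without any one of shCtrl replicate 2, shPCBP1 replicate 1 and shPCBP1 replicate 2. With the GC trend of each library removed, 14 of 19 log2 fold changes were negative. These genes are near relatives that share sequence, with a median of 24.7% shared 31-base words, so they are not independent of each other.

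Cluster 12 (chr19:43525497-45076478, 24 genes from ZNF575 to ZNF296) leaned the other way. Of its 19 members given an adjusted p, 13 had positive log2 fold changes, and the 5 that passed, ZNF296, ZNF45, ZNF227, ZNF576 and ZNF428, were all higher. Among all genes given an adjusted p, 31.2% passed and 50.3% had a log2 fold change above 0. Among the 221 ZNF genes on other chromosomes 60.6% were above 0, with 55 passing higher and 17 lower. A lean to higher values was thus not particular to cluster 12. The summed normalized counts of this cluster were 11156, 11047 and 11629 in shCtrl and 12398, 12842 and 12309 in shPCBP1, without overlap. Its median log2 fold change was 0.10. With the length offset 1 member passed higher and 2 lower, while the median was 0.14, with 12 of 22 values positive. With coding transcripts only 5 members passed, all higher, but the median was 0.00, with 11 values positive and 11 negative. Without shPCBP1 replicate 2 the passing members numbered 2. Its large group of genes between ZNF283 and ZNF229 held the passing genes ZNF45 and ZNF227 only. Read by the KRAB letter patterns described below, 2 members of this cluster matched the strict pattern and 19 the looser one. ZNF45 and ZNF227 matched the looser pattern only. ZNF224, a repressor of aldolase A and a cofactor of WT1, had 1278, 1533 and 1223 normalized counts in shCtrl and 1011, 1270.1 and 1384 in shPCBP1 with overlapping groups (log2 -0.14, DESeq2 adjusted p = 0.415).

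Cluster 16 (chr19:55476617-58481230, 59 genes from ZNF628 to ZNF446) had positive log2 fold changes in 37 of 51 members, with 6 passing higher and 2 lower. Over all genes given an adjusted p, 31.2% passed and 50.3% had a log2 fold change above 0, and 60.6% of the ZNF genes on other chromosomes were above 0. The summed normalized counts of cluster 16 were 66139, 65796 and 67247 in shCtrl and 69715, 70382 and 70850 in shPCBP1, and the groups were separate. Its median log2 fold change was 0.10, between 0.07 and 0.18 over the other settings and between 0.07 and 0.13 when 1 library was left out. With the GC trend removed 11 members of this cluster passed higher and 2 lower.

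Cluster 5 (chr19:19668796-24129968, 37 genes from ZNF101 to ZNF254) is the pericentromeric group of primate zinc finger genes and includes ZNF91, which represses SVA elements, and ZNF93, which represses L1 elements. None of its 29 members given an adjusted p passed in DESeq2 or in edgeR, and 1 had an unadjusted p under 0.05 in DESeq2. Its log2 fold changes were negative in 20 and positive in 9, with a median of -0.04. Its summed counts (24623, 26508 and 25258 in shCtrl, 23120, 25407 and 25359 in shPCBP1) overlapped. ZNF93 had 994, 1120.5 and 1053 normalized counts in shCtrl and 1001, 1138 and 996 in shPCBP1, a log2 fold change of -0.01 (SE 0.0987). ZNF91 had 139, 168 and 124 in shCtrl and 130.4, 113 and 131 in shPCBP1, a log2 fold change of -0.20 with an SE of 0.251 (DESeq2 adjusted p = 0.608). At its mean of 134 normalized counts a change of that size was not detectable.

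In cluster 9 the sum and the members pointed different ways. Of 25 members given an adjusted p, 16 had negative log2 fold changes, yet the summed normalized counts were 25367, 24990.0 and 26017 in shCtrl and 26454, 27213 and 26272 in shPCBP1, with ZNF146 alone contributing a mean of 13782. Clusters 1 and 8, of 5 genes each, had lower sums in shPCBP1. Cluster 1 had 2023, 2039 and 2138 in shCtrl and 1917, 2000.1 and 1907 in shPCBP1, with no passing member. Cluster 8 had 4013, 4027 and 3907 in shCtrl and 3767, 3758 and 3738 in shPCBP1, with 1 member that passed lower. Both were separate between groups. Cluster 15 held 4 higher and 3 lower genes among 34, and its sums overlapped. Over the whole family the sums were 247509, 250720.4 and 254494 normalized counts in shCtrl and 253149, 259239 and 258326 in shPCBP1, which overlapped as well. Of the 209 members, 109 had positive and 100 negative log2 fold changes.

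**Figure D4:**
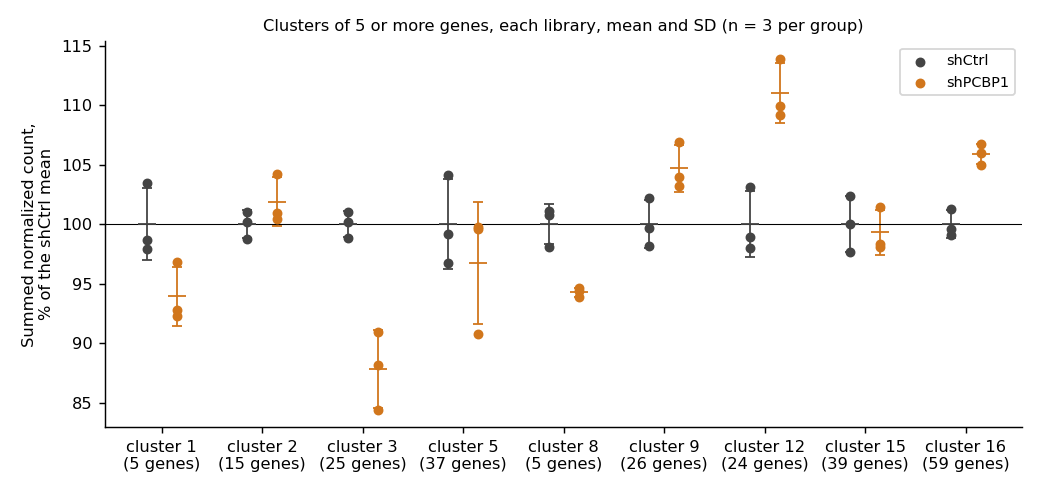
Summed normalized counts of the clusters with 5 or more genes in each library, as a percentage of the shCtrl mean of the cluster, with the mean and SD (n = 3 per group). Clusters 1, 3 and 8 lie below the shCtrl range in all shPCBP1 libraries, clusters 9, 12 and 16 lie above it, and the groups overlap in clusters 2, 5 and 15.

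Other members with a known role were described whatever their change. ZNF274 had 4839, 4779.8 and 4966 normalized counts in shCtrl and 4661, 4582 and 4625 in shPCBP1, a small separation that did not pass (log2 -0.07, SE 0.0485, DESeq2 adjusted p = 0.268). ZNF675, an inhibitor of TRAF6 signalling, had a log2 fold change of -0.18 with an SE of 0.108 (DESeq2 adjusted p = 0.22), and its groups overlapped. ZNF331, an imprinted gene, had 55.7, 187 and 93.2 normalized counts in shCtrl and 80.9, 95 and 98.3 in shPCBP1. One shCtrl library stood above all others, and the log2 fold change of -0.28 (SE 0.383) turned to 0.29 without that shCtrl replicate 2. ZNF43, ZNF90, ZNF208, ZNF230 and ZNF443 had overlapping groups and adjusted p between 0.283 and 0.96. ZNF85 and ZNF676 had too few counts for an adjusted p. ZNF580, at the proximal side of cluster 16, rose by 0.21 (SE 0.0756, DESeq2 adjusted p = 0.0242), a call kept in 2 of the 6 fits that left out a library, with the lowest log2 value of 0.16 and an adjusted p of 0.137 without shPCBP1 replicate 3. It also lost its call with edgeR, with coding transcripts only and with the length offset (adjusted p = 0.0602, 0.0817 and 0.146). ZNF580 is uncertain, since it overlaps exons of ZNF581 and CCDC106 on its strand.

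Sequence features of the members were set beside the calls as a description. The canonical transcripts of the 19 higher members had a median GC content of 47.9% and those of the 13 lower members 43.2%, against 42.3% over all 246 members and 48.4% over all genes given an adjusted p. Of the 29 members with a GC content of at least 50%, 8 were higher and 1 lower, and of the 180 below 50%, 11 were higher and 12 lower. Among all genes given an adjusted p, 17.7% were called higher and 13.5% lower. Spearman's rho between GC content and log2 fold change was 0.22 over the 209 members and -0.11 over 12817 protein-coding genes, and with the GC trend of each library removed it was 0.29 over the members. The points are genes of the same 6 libraries and are not independent. Members had a median of 9.02 CCC runs per kb of transcript, a stretch of the kind that PCBP1 binds, where all genes had 12.9, and rho with the log2 fold change was 0.11.

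KRAB domains were read as letters in the coding sequences of all protein-coding transcripts of a member, and a match in any of them counted. A strict pattern matched 147 members and a looser one, chosen after the values were seen, matched 191. With the strict pattern, 5 of 128 members with the letters were higher and 9 lower, and 14 of 81 without them were higher and 4 lower. Of these 81, 36 matched the looser pattern, ZNF45, ZNF227 and ZNF175 among them. With the looser pattern, 9 of 164 members with the letters were higher and 11 lower, and 10 of 45 without them were higher and 2 lower. These counts stand beside 17.7% of all genes called higher and 13.5% called lower, and the difference between the groups of members was not tested. The higher members had a median of 10 fingers and the lower members 13. The 14-base linker stretch printed above was in 7 of 19 higher and 8 of 13 lower members. GC content, KRAB letters and finger number vary together in the family, and their separate parts were not tested.

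The proteins that KRAB zinc finger proteins act through were read from a list of 26 genes that includes ZNF274, itself a member. Of these, 11 rose and 2 fell in shPCBP1, with a median log2 fold change of 0.10. That is 50% of the list, where 31.2% of all genes passed (17.7% higher and 13.5% lower), and the list has a median of 8965 mean normalized counts against 1431 for all genes. TRIM28, the co-repressor bound by KRAB, had 73697, 68222 and 69226 normalized counts in shCtrl and 82828, 80663 and 77573 in shPCBP1, a log2 fold change of 0.19 with an SE of 0.0379 (DESeq2 adjusted p = 5.47e-06). DNMT1, the maintenance DNA methyltransferase, rose by 0.36, its cofactor UHRF1 by 0.29, the histone deacetylase HDAC1 by 0.29 and the HP1 gene CBX5 by 0.18. EHMT2 (G9a) fell by 0.18 and CBX3 (HP1 gamma) by 0.10 on the log2 scale. With the GC trend of each library removed 12 genes of the list were higher and 0 lower, so neither of these calls held. SETDB1 had a log2 fold change of 0.10 that did not pass (DESeq2 adjusted p = 0.0909). All changes in the list were below 1 on the log2 scale.

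The files also give each annotated transcript, 1688 for the 246 members. Of the 170 members at or above 1 TPM, the most abundant transcript was the canonical one in 111, held less than 50% of the gene's TPM in 67 and at least 90% in 22, with a median share of 55.8%. Up to 11 transcripts of a member reached 0.5 TPM. The transcript level was tested with limma on log2(TPM + 0.1) for 477 transcripts of 175 members. None passed an adjusted p of 0.05, where 2.71% of all 61384 transcripts did, and 45 had an unadjusted p under 0.05 (9.43%, against 19% of all transcripts). The smallest adjusted p, 0.0529, was that of ZNF146-201, with 50.9, 49.4 and 49.8 TPM in shCtrl and 57.2, 58.0 and 56.3 TPM in shPCBP1. Its groups were separate, and its log2 difference of 0.19 on the log2(TPM + 0.1) scale was close to that of the gene. Next came ZNF320-201, with 6.89, 6.51 and 5.97 TPM in shCtrl and 4.52, 4.53 and 4.74 TPM in shPCBP1 (log2 -0.48, limma adjusted p = 0.0692), also with separate groups.

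On simulated data the transcript tests missed most changes of moderate size and many large ones. The absence of calls thus does not show that levels or shares were unchanged. The share of each transcript in its gene's TPM was tested for 612 transcripts of 153 members. None was called with an adjusted p under 0.05 and a difference over 5 points, where 0.666% of all 38458 transcripts were, and 43 had an unadjusted p under 0.05 in limma (7.03%, against 13.7% of all). The lowest p was that of ZNF417-206, at 0.689% ± 1.19 of the gene's TPM in shCtrl and 16% ± 2.95 in shPCBP1 (SD, n = 3, limma adjusted p = 0.0765). Shares of ZNF559-209 were 26.7% ± 5.25 in shCtrl and 4.42% ± 7.66 in shPCBP1, and it was listed at 0 in 2 of the 3 shPCBP1 libraries. ZNF480-206 went from 59.4% ± 7.32 to 47.0% ± 3.28, while the canonical ZNF480-205 went from 37.7% ± 6.47 to 47.1% ± 2.80. These transcripts were chosen after their values were seen, and none passed the test. The rise of ZNF480 in counts (log2 0.22) was -0.05 with the length offset.

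Summed over the family, retained-intron transcripts made up 6.65%, 6.99% and 5.97% of the members' TPM in shCtrl and 5.65%, 5.22% and 5.27% in shPCBP1. The shCtrl libraries were all above the shPCBP1 libraries. In all other protein-coding genes the same class made up 5.47% ± 0.197 in shCtrl and 5.30% ± 0.101 in shPCBP1. Transcripts annotated as protein coding made up 79.7% ± 0.404 of the members' TPM in shCtrl and 81.5% ± 0.247 in shPCBP1, against 88.8% ± 0.294 and 88.9% ± 0.109 in other protein-coding genes. Transcripts annotated without a defined coding sequence went from 9.11% ± 0.207 to 8.50% ± 0.232 in the members and were 3.37% ± 0.0728 and 3.43% ± 0.0199 in other genes. Transcripts marked for nonsense-mediated decay stood at 3.76% ± 0.148 and 3.74% ± 0.121 in the members and at 2.30% ± 0.0234 and 2.39% ± 0.0153 in other genes. In both groups a smaller part of the family's TPM than of that of other genes thus lay in transcripts annotated as protein coding. A permutation of 3 against 3 libraries cannot give a two-sided exact p below 0.1, and no p is given for these sums.

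**Figure D5:**
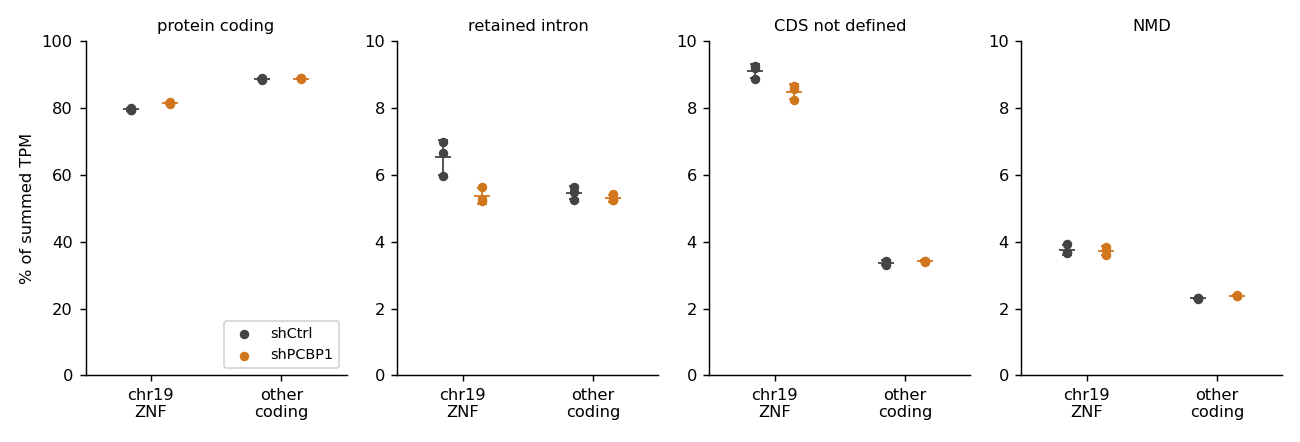
Share of summed TPM by annotated transcript class in each library, for the 246 members and for all other protein-coding genes, with the mean and SD (n = 3 per group); the first panel has its own axis. Retained-intron shares of the members fall from 5.97% to 6.99% in shCtrl to 5.22% to 5.65% in shPCBP1, while those of other genes overlap.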

How the data were processed

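Poly-A RNA was sequenced by the authors in paired-end runs of 150 cycles, and the deposited tables are transcript-level output of Salmon 1.10.2 (version per the labels, genome build hg38), with estimated counts and TPM per transcript as deposited. The annotation of the Salmon index and the strand setting are not given in the sources used here. Of 252045 transcripts, 251142 matched GENCODE v44 by identifier, all with equal length. The rest, 0.328% to 0.339% of counts, were left out. Estimated counts were summed per gene, rounded, kept at a sum of at least 10 and tested with DESeq2 1.42.0 (R 4.3.3, median-of-ratios size factors, Wald test, Benjamini-Hochberg adjustment over all genes), shPCBP1 over shCtrl, 3 libraries each. Transcripts with a mean TPM of at least 0.5 were tested with limma 3.58.1 on log2(TPM + 0.1), and shares of gene TPM in genes of at least 1 TPM as log ratios. A fold change on that scale understates changes of low transcripts. Each test was tested on simulated data.

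Alternatives were edgeR 4.0.16, TMM factors, count filters, an offset for effective transcript length, a GC trend, a replicate block, transcript subsets, other pseudocounts and leaving out each library. Leaving out uncertain members was added after seeing the data. Named genes were the 12 passing members with the lowest adjusted p in each direction (mean normalized count of at least 50), the 8 with the highest mean TPM and a panel of 16 with known roles; the other passing members and transcripts named were chosen after their values were seen. The members, lists and rules were chosen with earlier results of these data known. Counts depend on Salmon's division of shared reads, and p-values cover the spread between libraries, not that division.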

Additional observations from a re-analysis of the deposited data

How the results depend on the processing

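The count of 32 passing members was 25 to 29 when 1 library was left out (14 to 18 higher, 8 to 12 lower), and all 32 kept their direction. It was 33 with TMM factors, 25 with edgeR (16 higher, 9 lower), 36 with the GC trend removed, 31 with the length offset, 37 with protein-coding genes only (19 higher, 18 lower) and 28 with coding transcripts only. The length offset shared 16 calls with the main count and gained 15, so about as many calls changed as stayed. Tested against an absolute log2 fold change of 1, the count was 0 for the members and 0 for the co-repressor list. Without the uncertain members it was 20 (14 higher, 6 lower). In all, 13 of the 32 passed every fit that left out a library, edgeR, the replicate block and the length offset. The fit with coding transcripts only is not among these checks. It lost 7 of the 32 calls, and ZNF584 and ZNF83, which are among the 13, lost theirs there. The calls lost numbered 12 without shPCBP1 replicate 1, and 4 to 9 without any other library.

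Deviations of libraries with the same number were nearly uncorrelated (0.0395, 0.0242 and -0.031). Those of libraries with different numbers ranged from -0.0942 to 0.061. No pairing by number was seen, but with 3 libraries per group the check cannot exclude one. With the replicate block 24 members passed (17 higher, 7 lower), and 26 with the block and the GC trend removed (20 higher, 6 lower). The block left 1 of the 5 lower calls of cluster 3, that of ZNF700. The transcript tests gave 0 calls with the block.

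Calls past a log2 fold change of 1 went from 0 to 1 without independent filtering (ZNF223, lower), 2 with protein-coding genes only (ZNF223 and ZNF284, lower), 2 with coding transcripts only (ZNF132 and ZNF229, higher) and 1 with the length offset (ZNF223), and stayed from 0 to 0 when 1 library was left out. The transcript level test called 2 transcripts at a mean TPM of at least 2 (ZNF146-201 and ZNF320-201) and 1 with a pseudocount of 0.01 (ZNF146-201). Leaving out 1 library gave 0 to 1 calls in the level test (a transcript of ZNF559 without shPCBP1 replicate 1) and 0 to 1 in the share test (ZNF558-202 without shCtrl replicate 1, ZNF776-202 without shCtrl replicate 2, the same ZNF559 transcript without shPCBP1 replicate 1, ZNF211-205 without shPCBP1 replicate 2). The cause of these changes was not tested. Leave-one-out ranges were -0.00 to 0.03 for the median log2 fold change, 9 to 14 for the co-repressor count and -2.49 to -2.42 for PCBP1. With the GC trend removed the median of all genes moved to 0.03.

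Log2 fold changes near 0 turned sign. ZNF93 was 0.000666 with the GC trend removed and 0.0321 with the length offset. ZNF444 was -0.00873 with TMM factors, -0.00871 with edgeR, -0.00496 at a mean count of at least 50, -0.0163 with protein-coding genes only, -0.0513 with coding transcripts only and -0.0221 with the length offset. The length offset gave -0.261 for ZNF85, 0.0424 for ZNF675 and -0.162 for ZNF230. Leaving out 1 library gave ranges of -0.608 to 0.293 for ZNF331, -0.655 to 0.293 for ZNF676, -0.175 to 0.636 for ZNF85, -0.187 to 0.261 for ZNF90, -0.0287 to 0.19 for ZNF43, -0.0787 to 0.0313 for ZNF93, -0.0376 to 0.0433 for ZNF444 and -0.0015 to 0.121 for ZNF230. Of 490 values of the 41 named genes under the other settings, 417 kept direction and side of the threshold, 60 lost the call and 2 gained it.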
